A study of Homo sapiens with 2 samples.

Results

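The 42 genes described here encode the chaperones, folding enzymes, protein-import channel, degradation machinery and stress sensors of the endoplasmic reticulum (ER). They were taken by name: a probe set belonged to a gene when the platform annotation gave that symbol alone. By this rule 101 probe sets of 38 of the 42 genes were found. PDIA5, TXNDC5 and SYVN1 occurred only in probe sets annotated to several genes, SEC61G was in no probe set that the annotation lists, and these 4 have no value here. All 38 had at least 1 probe set whose mean signal reached the median of the table, 49.1, and 91 of the 101 probe sets did. In all, 12531 genes met that minimum.

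HCC15 is an established human lung cancer cell line that the labels call squamous. The control group was 1 sample of HCC15 given a control siRNA, whose target the labels do not state and whose title carries the word Tax. The other group was 1 sample of HCC15 given CTNNB1 siRNA, which targets the beta-catenin transcript. Both grew in RPMI medium with 5% fetal bovine serum, the protocol gives collection at 48 h after transfection, and each RNA went to 1 Affymetrix array. The series title asks for Wnt target genes in lung cancer with mutant CTNNB1. No condition was repeated, which leaves no test between the conditions, and each difference below is one between these 2 arrays.

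Proteins bound for the cell surface, the secretory route or export enter the ER through the SEC61 channel. In the lumen they are folded by the HSP70-type chaperone HSPA5 and the HSP90-type chaperone HSP90B1, held by the lectins calnexin and calreticulin, and joined at cysteines by disulfide isomerases. Proteins that fail to fold are drawn back to the cytosol and degraded. Membrane sensors encoded by ERN1, ATF6 and EIF2AK3 read the load of unfolded protein. Through the transcription factors XBP1, ATF6 and ATF4 they raise many of these same genes, a programme called the unfolded protein response. Secretory cells such as plasma cells are known for high levels of it.

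ATF6 and XBP1 are known to act through short promoter motifs, so the RefSeq promoter windows of the genes are shown before their values. A window runs from 250 bases before to 50 bases after a transcript start in GRCh38.p14, and 39 of the 42 genes matched by symbol, with 53 windows. The ER stress response element (ERSE), CCAAT followed after 9 free bases by CCACG, was searched on both strands. It lay in 27 of 35116 windows of all genes, 0.0769%, that is in those of 25 of 27305 genes (0.0916%), and in the windows of 8 of the 39 genes, 20.5%. The 9 matches are given 5′ to 3′ on the strand of the motif, with up to 10 flanking bases on each side and both parts of the motif in capitals.
CALR (chr19:12938374-12938412, minus strand): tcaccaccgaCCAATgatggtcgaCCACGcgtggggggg
CANX (chr5:179698768-179698806, plus strand): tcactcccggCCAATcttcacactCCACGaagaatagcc
CRELD2 (chr22:49918544-49918582, minus strand): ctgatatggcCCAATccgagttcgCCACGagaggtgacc
HSP90B1 (chr12:103930206-103930244, plus strand): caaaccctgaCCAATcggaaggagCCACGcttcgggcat
HSP90B1 (chr12:103930311-103930349, minus strand): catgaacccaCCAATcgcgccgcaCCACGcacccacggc
HSPA5 (chr9:125241381-125241419, minus strand): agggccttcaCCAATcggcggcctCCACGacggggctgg
PDIA6 (chr2:10812843-10812881, minus strand): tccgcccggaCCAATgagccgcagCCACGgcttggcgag
SERP1 (chr3:150546700-150546738, plus strand): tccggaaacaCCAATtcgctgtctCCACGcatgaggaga
XBP1 (chr22:28800593-28800631, minus strand): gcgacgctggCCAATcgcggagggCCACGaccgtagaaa

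HSP90B1 alone among the 39 genes had 2 such exact matches, which lie on opposite strands. Near matches, with any letter of either part changed, were not searched for in HSPA5, HSP90B1 or any other gene. The matches are therefore not a count of working elements, and whether their number goes with the array values was not tested. The 250 bases before the transcript start of HSP90B1 and of HSPA5 are shown whole, because these are the main HSP90-type and HSP70-type chaperones of the ER and their array values, given below, were unlike. The sequences read 5′ to 3′ on the gene's strand, and capitals mark the parts of the ERSE, which appears as its reverse complement where it lies on the other strand. In HSPA5 the match spans bases -66 to -48 from the transcript start, and in HSP90B1 the matches span -194 to -176 and -89 to -71.
HSPA5 (chr9:125241344-125241593, minus strand): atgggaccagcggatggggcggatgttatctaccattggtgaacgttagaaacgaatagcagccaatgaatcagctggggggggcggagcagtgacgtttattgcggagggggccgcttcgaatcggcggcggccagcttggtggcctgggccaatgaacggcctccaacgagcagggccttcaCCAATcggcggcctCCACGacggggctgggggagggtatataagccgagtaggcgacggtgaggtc
HSP90B1 (chr12:103930160-103930409, plus strand): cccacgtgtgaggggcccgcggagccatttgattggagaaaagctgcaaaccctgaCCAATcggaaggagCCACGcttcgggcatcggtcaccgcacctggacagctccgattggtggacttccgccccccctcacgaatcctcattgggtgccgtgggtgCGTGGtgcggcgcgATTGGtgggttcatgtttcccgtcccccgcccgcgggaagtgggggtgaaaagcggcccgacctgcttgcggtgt

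A second form, ERSE-II, has ATTGG, 1 free base and CCACG. It lay in 19 of the 35116 windows, 0.0541%, from 19 genes (0.0696%), and in those of 3 of the 39 genes, 7.69%. HYOU1 had 2 matches. The upstream one overlaps a match of the next motif.
HERPUD1 (chr16:56932015-56932045, plus strand): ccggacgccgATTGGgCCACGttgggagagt
HYOU1 (chr11:119057264-119057294, plus strand): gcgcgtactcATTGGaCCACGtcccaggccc
HYOU1 (chr11:119057370-119057400, plus strand): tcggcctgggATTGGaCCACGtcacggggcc
SDF2L1 (chr22:21642104-21642134, minus strand): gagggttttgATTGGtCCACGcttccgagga

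The core of the XBP1 element, TGACGTGG on either strand, lay in 256 of the 35116 windows, 0.729%, from 253 genes (0.927%), and in those of 4 of the 39 genes, 10.3%, HYOU1, TXNDC5, SEC62 and SSR3. SEC62 and SSR3 are shown because their signals differed by over 1.5-fold, as given below.
SEC62 (chr3:169966780-169966807, minus strand): cggttccctcTGACGTGGagcgaggagg
SSR3 (chr3:156554149-156554176, plus strand): gtttccttgcTGACGTGGctgttatcag
The TCF/LEF motif through which beta-catenin is known to act, searched as ATCAAAG on both strands, lay in 2.62% of all windows, from 3.18% of genes, and in none of the 39 genes' windows, which says only that these letters are not in these 300 bases. Matches are descriptions of the reference sequence, and nothing was measured at them.

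The knockdown was visible on the arrays. CTNNB1 read 1224 with control siRNA and 339 with CTNNB1 siRNA in the probe set with its highest signal, 3.61-fold lower, with log2 ratios of -0.13 and -0.97 in its dimmer probe sets. The Wnt feedback gene AXIN2 was 3.31-fold lower. NKD1, another, read 296 and 35.1, the latter under the signal minimum, and its log2 ratio ran from -3.74 to -2.59 over the settings tried. Of 10 squamous markers 4 met the signal minimum (SOX2, S100A2, SFN and PERP). The squamous keratins KRT5 (34.4 and 9.8) and KRT14 (25 and 6.7) were under it, and TP63 and KRT6A had no probe set of their own symbol. Of the markers of other cell types, 4 of 5 for lung adenocarcinoma, 1 of 5 neuroendocrine, 1 of 5 plasma cell and 2 of 4 fibroblast ones met it. None that met it was 2-fold different between the arrays.

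Values below are those of a gene's probe set with the highest mean signal, control siRNA first and CTNNB1 siRNA second, and a log2 ratio is CTNNB1 siRNA over control siRNA. The pooled SD of log2 ratios between probe sets of 1 gene, the only error available, was 0.42 over 5791 genes and 0.48 over the 26 members with 2 or more. It does not cover variation between cultures. The median log2 ratio of all 12531 genes was 0.15 as deposited, -0.02 after loess (a smooth trend of the ratio with signal subtracted), -0.03 after quantile normalization (both arrays given 1 distribution), 0.29 with the arrays set to a common median and 0 when centred, so small ratios change sign over these 5 scalings. In this bulk RNA, fewer expressing cells and less RNA per cell cannot be told apart.

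As a set, the ER genes lay close to the rest of the transcriptome. Of the 38, 1 gene, HSP90B1, was at least 2-fold higher with CTNNB1 siRNA, against 2.29% of all genes, and 0 were at least 2-fold lower, against 2.38%. At least 1.5-fold higher were 5 of 38, 13.2%, against 11.2% of all genes, namely HSP90B1, DNAJB11, SEC62, PDIA4 and SSR3. None was at least 1.5-fold lower, against 7.61%. When the minimum was raised to the 75th percentile of signal, 209, those shares were 5 of 35 members against 11.9% of all genes, and 0 of 35 against 2.09%. After loess 1 of 38, HSP90B1, was at least 1.5-fold higher and 0 were lower, against 6.57% and 8.88%. The 38 log2 ratios ran from -0.36 to 1.38 with a median of 0.27 as deposited and 0.05 after loess, where all genes had -0.02.

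Signal and ratio were linked on these arrays. The median log2 ratio ran from -0.23 in the dimmest decile of all genes to 0.28 and 0.27 in the 2 brightest, and 16 of the 38 members, 42.1%, fell in those 2. Of the members, 25 lay above the median of all genes, and 23 above the median of their own decile. In all, 7, or 18.4%, lay more than 1 probe set SD from the median of all genes, against 29.9% of all genes. The 7 were HSP90B1, DNAJB11, SEC62, PDIA4, SSR3 and SEC61A1 on the higher side and WFS1 on the lower. With bright probe sets alone (mean signal of at least 209), whose SD is 0.29, 11 of 35 members lay beyond it from the median of bright genes, 0.23, which is 31.4% against 35.1% of 7913 bright genes.

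**Figure D1:**
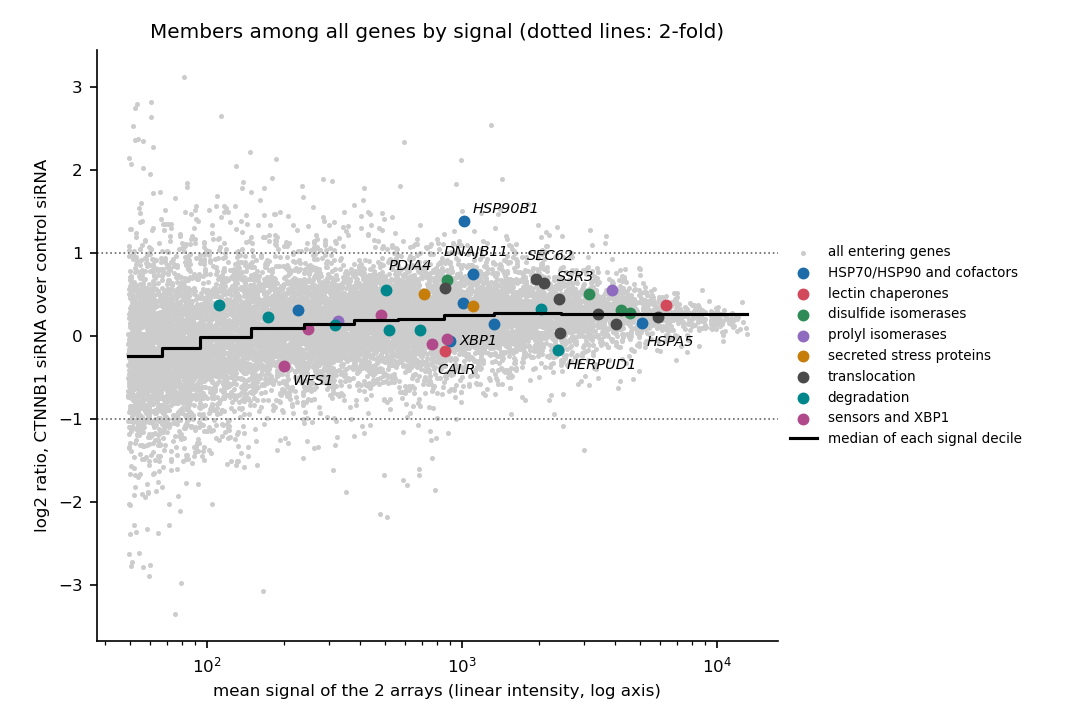
Log2 ratio of CTNNB1 siRNA over control siRNA (y axis) against the mean signal of the 2 arrays (x axis, log scale) for all 12531 genes in grey and the 38 members in colour by role, 1 value per gene. The black steps are the median of each signal decile, and HSP90B1 at 1.38, above 1 under all 5 scalings, is the only member beyond the dotted 2-fold lines.

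The chaperones of the HSP70 and HSP90 systems held both the largest ratio of the set and several ratios near 0. HSP90B1 (also GRP94), which folds integrins, Toll-like receptors and other client proteins, read 567 with control siRNA and 1475 with CTNNB1 siRNA. That is 2.6-fold higher, a log2 ratio of 1.38 that stayed between 1.13 and 1.52 under the 5 scalings. Its second probe set (216450_x_at) read 190 and 373, a log2 ratio of 0.97 and just short of 2-fold. Both IDs end in _x_at, which marks probes that can also bind related transcripts, and the part of such transcripts was not tested. Another 2 probe sets that list HSP90B1 with a second gene were not used.

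HSPA5 (BiP), the central HSP70 of the ER, did not share that difference. Its signal was 4812 and 5379, a log2 ratio of 0.16 that became -0.10 after loess. A second HSPA5 probe set (230031_at) read 299 and 167, so the pair disagreed in sign, and the median over both was -0.34. HYOU1, a large HSP70 relative that exchanges nucleotide on HSPA5, read 1271 and 1401 (0.14, and -0.13 after loess).

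The J-domain proteins that bring clients to HSPA5 differed among themselves. DNAJB11 read 830 and 1387, 1.67-fold higher, with log2 ratios between 0.48 and 0.88 under the scalings. DNAJC3, which also restrains the kinase EIF2AK3, read 876 and 1154 (0.40), and its dim second probe set (235341_at) read 89.3 and 74.8. DNAJB9, a classical XBP1 target that holds the sensor ERN1 in check, read 920 and 880 (-0.06, and 0.07 with a common median), and its other probe sets had log2 ratios of -0.13 and -0.02. SDF2L1, a partner of DNAJB11, read 203 and 251 (0.31). In this group 2 of 7 genes were at least 1.5-fold higher and 0 lower, against 11.2% and 7.61% of all genes. After loess 1 of the 7, HSP90B1, was at least 1.5-fold higher, against 6.57% of all genes.

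The lectin chaperones bind newly made glycoproteins through their trimmed sugars, and the pair went in opposite directions. The membrane-bound CANX read 5526 and 7151, a log2 ratio of 0.37 that kept its sign under the 5 scalings. A CANX probe set outside the _s_at group (238034_at) read 1106 and 842 (-0.39), while its other 2 entering probe sets had 0.60 and 0.51. The soluble CALR read 917 and 807, 1.14-fold lower and below 0 under all 5 scalings, and its second entering probe set (212953_x_at) read 909 and 763. Both of these CALR IDs end in _x_at. The remaining CALR probe set (200935_at), under the signal minimum, was higher instead, 34.7 and 44.7. In the probe sets that stand for the genes, the differences of CANX and CALR as deposited were smaller than the probe set SD, 0.42. CALR was just beyond it after loess and after quantile normalization, at -0.43 in both.

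The 4 disulfide isomerases with a value, which form and reshuffle cysteine bonds, were all higher as deposited, as were 64% of all genes. PDIA3, PDIA6 and P4HB were in the brightest decile, whose median log2 ratio was 0.27. PDIA4 read 676 and 1078, 1.6-fold higher, and its second probe set (208658_at) gave nearly the same, 505 and 777 (0.62). PDIA3, which works with CANX and CALR on glycoproteins, read 2615 and 3707 (0.50), but its other probe sets had -0.32 and 0.15. PDIA6, which also acts on the sensor ERN1, read 3761 and 4692 (0.32), with 0.37, 0.92 and 0.10 in its other probe sets. P4HB, the founding member and a subunit of collagen prolyl hydroxylase, read 4112 and 4983 (0.28, and -0.01 after quantile normalization). After loess the group's 4 ratios ran from 0.02 to 0.43.

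The prolyl isomerases speed a slow step of folding. PPIB (cyclophilin B), which acts on collagen, read 3133 and 4616, 1.47-fold higher, and its second probe set (200968_s_at) read 1982 and 2789. FKBP2 read 307 and 348, a log2 ratio of 0.18 that was just below 0 after loess and after quantile normalization. CRELD2 and MANF are small secreted proteins that ER stress is known to raise. CRELD2 read 589 and 836 (0.51). MANF read 967 and 1245 (0.36). PPIB, CRELD2 and MANF stayed above 0 under all 5 scalings.

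**Figure D2:**
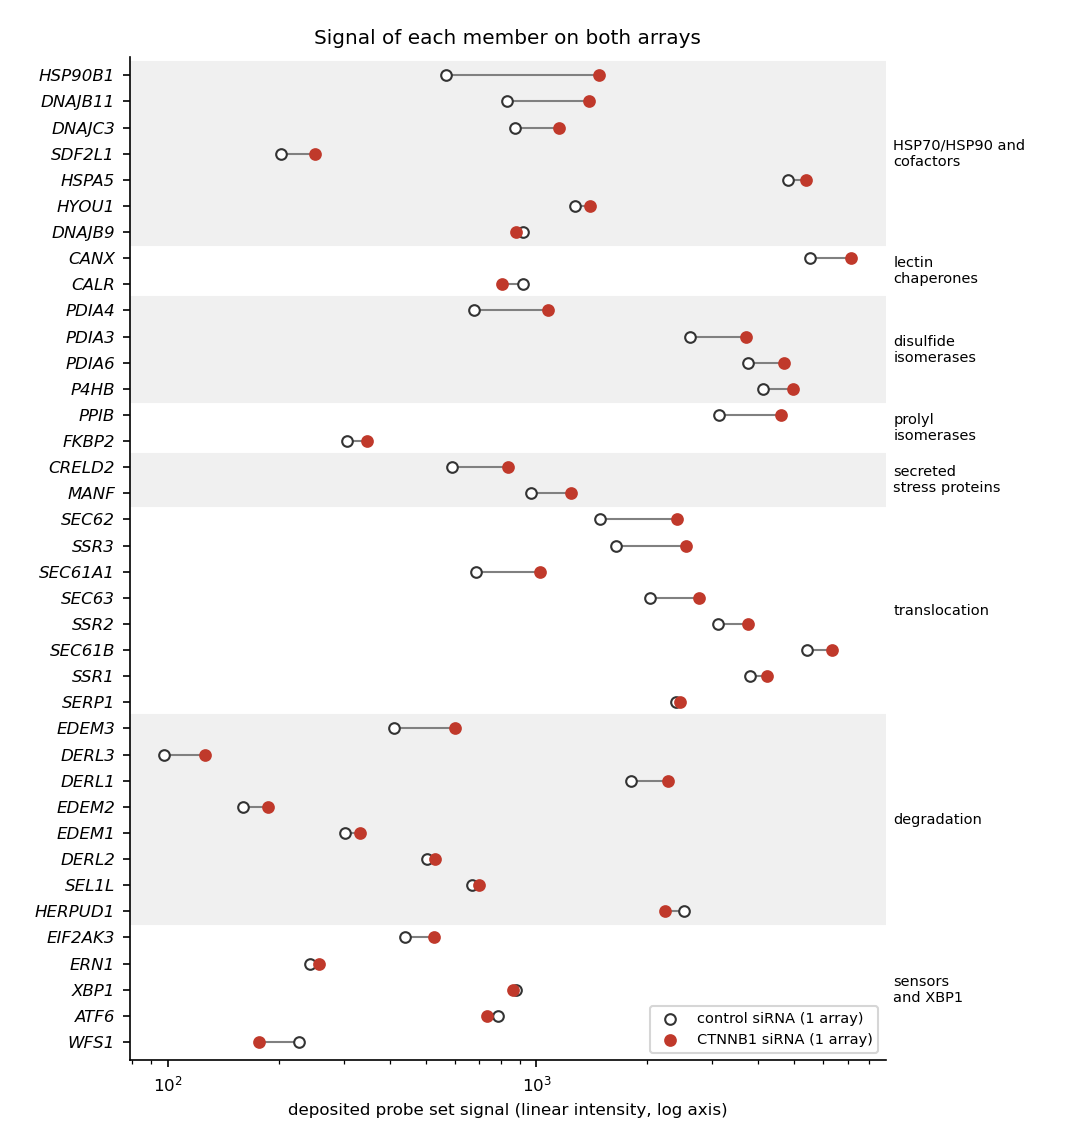
Deposited signal (x axis, log scale) of each of the 38 members (y axis, grouped by role) with control siRNA (open) and CTNNB1 siRNA (red), 1 array each and no error bar. Signals ran from 97.5 to 7151, HSP90B1 has the longest segment, and in 6 genes the CTNNB1 siRNA value lies to the left as deposited, in 3 of them under all 5 scalings. Of all 12531 genes, 4499 had a lower CTNNB1 siRNA value as deposited. After loess 16 of the 38 members and 6595 of all genes were below 0.

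Of the import genes, all 8 with a value had a ratio above 0 as deposited, as did 64% of all genes, and 5 of 8 did after loess. At least 1.5-fold higher were 2 of the 8 as deposited, SEC62 and SSR3, against 11.2% of all genes. After loess none was, against 6.57% of all genes. SEC61A1, the pore-forming subunit of the channel, read 686 and 1025 (0.58), and its second probe set (222385_x_at) read 164 and 266 (0.69). SEC61B, the small subunit, read 5410 and 6341, a log2 ratio of 0.23 that became -0.03 after loess. SEC62 and SEC63 help finished proteins through the channel, and SEC63 recruits HSPA5 to it. SEC62 read 1487 and 2404, 1.62-fold higher, with 0.70 and 0.30 in 2 other probe sets but 106 and 52.6 in a dim one (1552790_a_at, -1.01). SEC63 read 2033 and 2765 (0.44), with 0.84, 0.41 and -0.25 in its others.

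SSR1, SSR2 and SSR3 encode subunits of the translocon-associated complex that sits beside the channel. SSR3 read 1642 and 2554, 1.56-fold higher, and its 3 other probe sets were also higher, with log2 ratios from 0.40 to 0.69. SSR2 read 3110 and 3752 (0.27, and -0.02 after quantile normalization). SSR1 read 3808 and 4221 (0.15, and -0.12 after loess), but its 6 probe sets spread from -0.39 to 0.84. The small stabilising protein SERP1 read 2397 and 2460 (0.04, and -0.24 after loess).

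Of the degradation genes, 0 of 8 were past 1.5-fold in either direction, where 11.2% of all genes were higher and 7.61% lower. The EDEM proteins mark misfolded glycoproteins by trimming mannose. EDEM1 read 302 and 331 (0.13, and -0.05 after loess) and EDEM2 159 and 186 (0.23). EDEM3 read 410 and 602 (0.55), and a second probe set (223243_s_at) read 162 and 369, past 2-fold at 1.19, while the other (220342_x_at) read 94.3 and 89.4. HERPUD1, a stress-induced scaffold of the ubiquitin ligase complex, read 2520 and 2237 (-0.17) and was below 0 under all 5 scalings. Its dim second probe set (1569380_a_at) went the other way, from 47.2 to 79.

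SEL1L, which holds the ligase SYVN1 in place, read 667 and 700 (0.07, and -0.16 after loess), with 0.15, -0.61 and 0.64 in its dimmer probe sets. The derlins form the exit path for substrates. DERL1 read 1808 and 2271 (0.33), DERL3 97.5 and 126 (0.37), and DERL2 506 and 532 (0.07, and -0.14 after loess). A dim DERL2 probe set (226719_at) read 90.6 and 29.2, a log2 ratio of -1.63, and with the median over both DERL2 probe sets, -0.78, it would be the 1 member at least 1.5-fold lower.

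The group of the sensors, XBP1 and WFS1 was the only role group whose median was below 0 as deposited, -0.03. Of its 5 ratios 2 were above 0 and 3 below, the lowest being that of WFS1, which is not a sensor. After loess the group's median was -0.28, and that of the lectin chaperones was also below 0, -0.16. ERN1 (IRE1), the kinase and nuclease that splices XBP1 mRNA, read 243 and 257 (0.08, and -0.08 after loess), but its dim probe sets read 67.7 and 45.8 (235745_at) and 74.9 and 26.3 (207061_at, -1.51). ATF6, the membrane-bound transcription factor, read 785 and 736 (-0.09, and 0.04 with a common median), with -0.32, 0.38 and 0.39 in its others. EIF2AK3 (PERK), the kinase that slows translation, read 441 and 526 (0.26) and was above 0 under all 5 scalings. XBP1 read 883 and 862 (-0.03, and 0.10 with a common median). The array values do not separate spliced from unspliced XBP1 mRNA. WFS1, an ER membrane protein mutated in Wolfram syndrome, read 227 and 176, 1.29-fold lower and the lowest log2 ratio of the 38, -0.36.

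**Figure D3:**
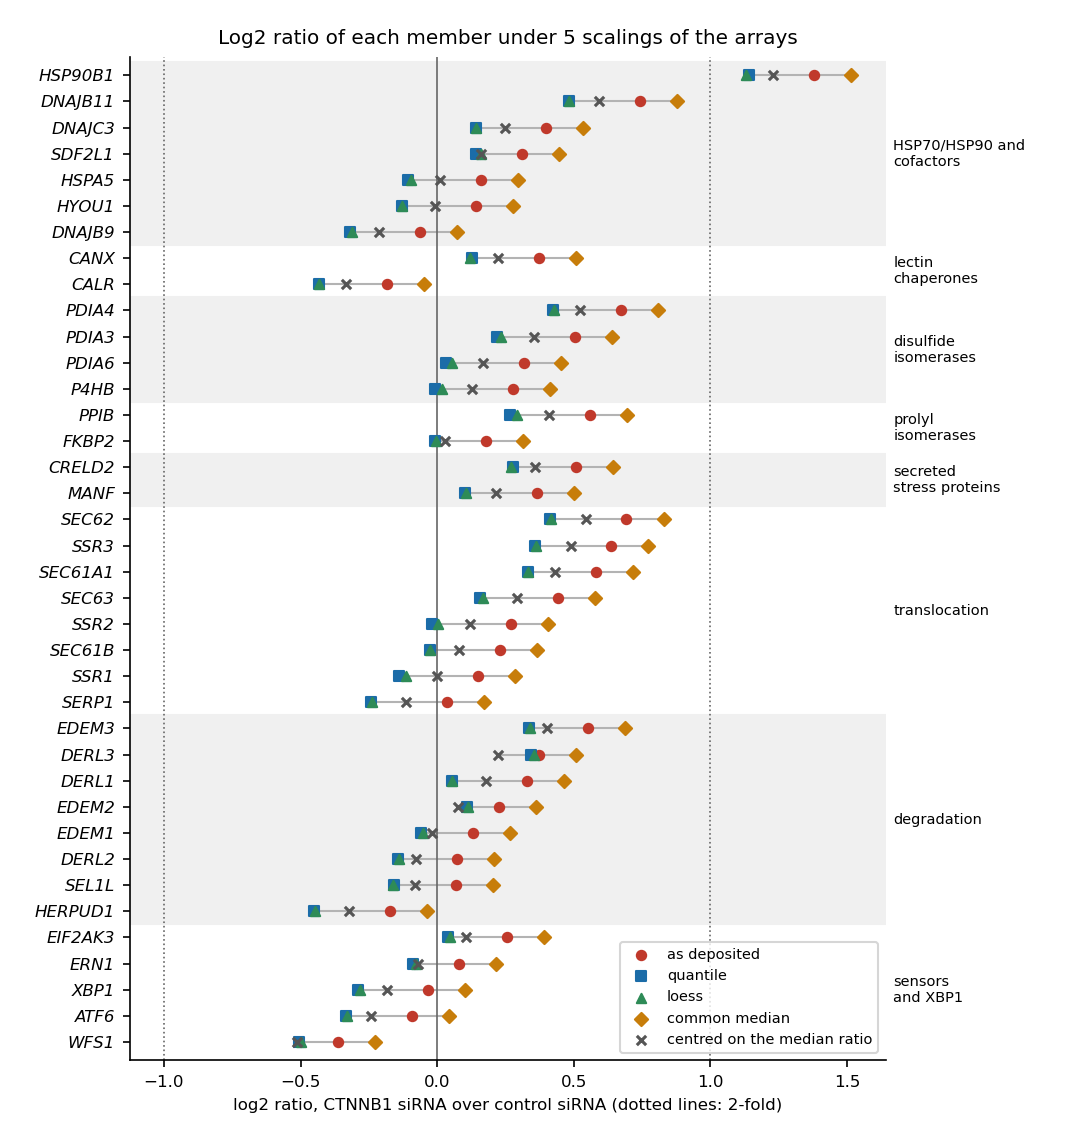
Log2 ratio of CTNNB1 siRNA over control siRNA (x axis) for each of the 38 members (y axis, grouped by role) as deposited and under 4 other scalings of the same 2 arrays, 1 point per scaling. Of the members, 20 lie above 0 under all 5, 3 (CALR, HERPUD1 and WFS1) below 0 under all 5, and 15 change sign. That count was not made for all genes. As deposited 84.2% of the members and 64% of all genes were above 0. After loess 22 of 38 members and 5936 of 12531 genes were.

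Ratios were next set beside the motifs. The 11 genes with an ERSE or ERSE-II match ran from -0.18 (CALR) to 1.38 (HSP90B1), with a median log2 ratio of 0.16 as deposited and -0.10 after loess. Of the 11, only HSP90B1 was at least 1.5-fold higher, as were 11.2% of all genes. Of the 24 valued genes with a window and neither match, 4 were, and their median was 0.26 (0.03 after loess). These 24 include SEC62 and SSR3, which hold the XBP1 core, and without them 2 of 22 were at least 1.5-fold higher, with a median of 0.24 (0.01 after loess). Over all genes, the 14 that had a value and an ERSE, 8 of them members, had a median of 0.20. The 3 valued members with the XBP1 core were HYOU1 (0.14), SSR3 (0.64) and SEC62 (0.69), or -0.13, 0.36 and 0.42 after loess. Over all genes, the 125 that had a value and the XBP1 core had a median of 0.15 (-0.04 after loess). The median of all 12531 genes was 0.15 (-0.02 after loess). Whether the XBP1 core goes with the ratio was not tested.

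Probe sets of the same gene disagreed in many members. Of the 26 members with 2 or more entering probe sets, 10 had 1 sign in all of them, 38.5%, against 54.5% of 5791 genes, but after loess 12 did, 46.2%, against 48.3%. In 8 of the 26, 30.8%, the log2 ratios were more than 1 apart, against 15.6% of all such genes, with much the same shares after loess (30.8% and 16.2%), and the members had 3.04 probe sets each on average against 2.72. The 8 were SEC62, DERL2, ERN1, EDEM3, SEL1L, SSR1, SEC63 and HSPA5. In 14 members with both kinds of ID, the median over _s_at and _x_at probe sets was above that of the other probe sets in 11, 78.6%, against 62.8% of 2983 genes, and after loess in 9, 64.3%, against 60%. Which transcripts the differing probe sets read was not tested. The 10 members with 1 sign as deposited were HSP90B1, PDIA4, PDIA6, P4HB, PPIB, SEC61A1 and SSR3 on the higher side and CALR, DNAJB9 and XBP1 on the lower.

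**Figure D4:**
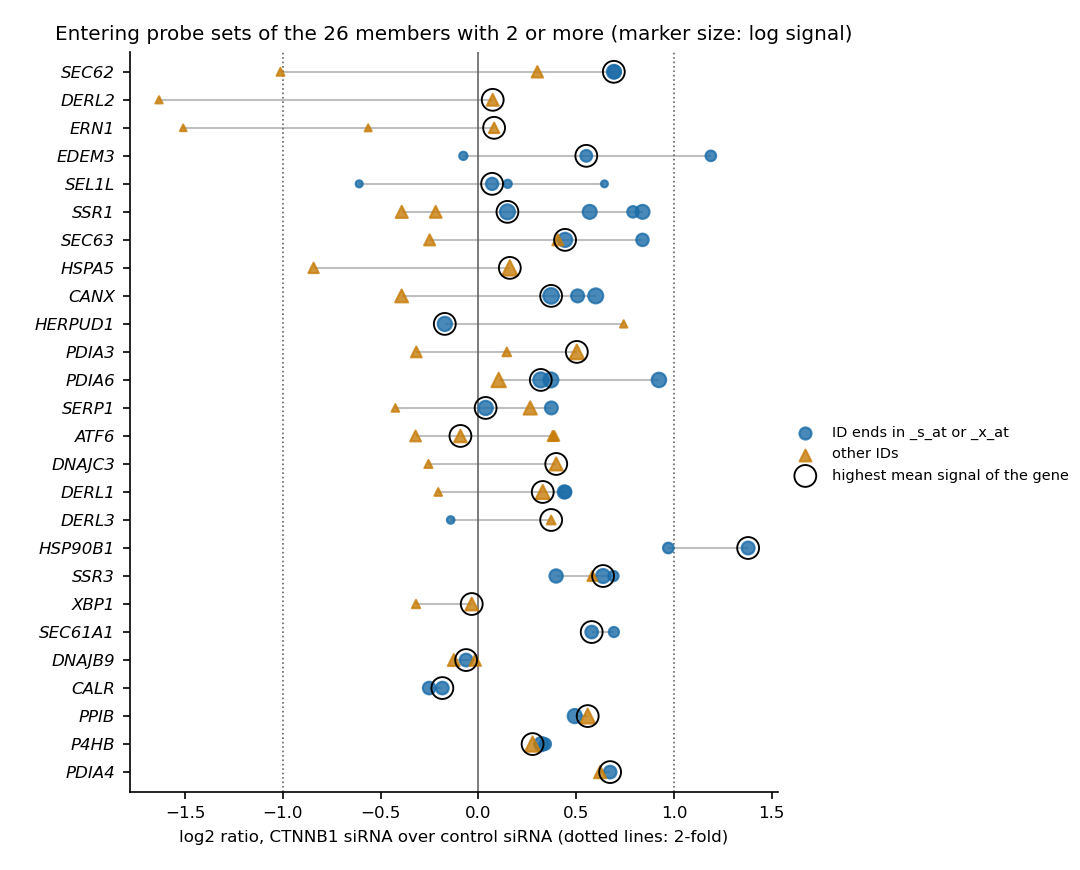
Log2 ratio (x axis) of every entering probe set of the 26 members that have 2 or more (y axis, widest spread at the top), with circles for IDs ending in _s_at or _x_at, triangles for other IDs, marker size rising with the log of the signal, and a ring on the probe set that stands for the gene. The range is 1.71 for SEC62 and for DERL2 and 0.05 for PDIA4.

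Other genes of the same compartment gave a similar picture. Of 151 further ER genes in 5 lists, 146 had a value, 1 was at least 2-fold higher and 3 at least 2-fold lower, with 13 and 3 past 1.5-fold, where all genes had 2.29%, 2.38%, 11.2% and 7.61%. After loess 5 were at least 1.5-fold higher and 5 lower, and the median of 0.26 became 0.04. Of the genes named next as past 1.5-fold higher, SELENOM, SELENOF, UGGT2 and NFYA were so after loess too, and PRKCSH, EMC1, EMC9, TRAM2, OS9, AUP1 and NFYB were not, with log2 ratios from 0.31 (TRAM2) to 0.55 (PRKCSH). Among 41 other folding genes, the selenoprotein SELENOM was 2.26-fold higher (67.9 and 153), TMX3, a membrane-bound thioredoxin-like isomerase, 2.38-fold lower (1066 and 448) and CNPY4 2.21-fold lower (134 and 60.5). SELENOF read 2664 and 5067 (0.93). A dim TMX3 probe set below the signal minimum (1552822_at) was higher instead, 24.8 and 52.5.

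Of 26 glycosylation genes, 2 were past 1.5-fold, both higher, where 11.2% of all genes were higher and 7.61% lower. The 2 were UGGT2 (160 and 279) and PRKCSH (501 and 859), a subunit of glucosidase II. UGGT2, which re-glucosylates misfolded glycoproteins, had 0.59, -0.21 and -0.50 in its other probe sets. ALG1 (0.58) and DPM1 (0.48) followed. Of 30 other import genes 3 were past 1.5-fold, all higher, where all genes again had 11.2% higher and 7.61% lower. The 3 were EMC1 (0.75) and EMC9 (0.74), subunits of the membrane insertase EMC, and TRAM2 (0.59). The other entering EMC1 probe sets had 0.21, -0.08 and 0.34. SGTA (0.54), a chaperone for tail-anchored proteins, came next.

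Of 27 other degradation genes 2 were past 1.5-fold, both higher, where 11.2% of all genes were higher and 7.61% lower. The 2 were OS9, a lectin that delivers substrates to SEL1L (1149 and 1830), and AUP1 (1267 and 1911). NGLY1 (0.58) and the ligase RNF5 (-0.58) were short of 1.5-fold as deposited. Of 22 other stress signalling genes, the pseudokinase TRIB3, induced downstream of ATF4, was 2.77-fold lower (1119 and 404), though its second probe set (1555788_a_at) read 62.2 and 54.3. NFYA (185 and 331) and NFYB (702 and 1111), subunits of the factor that binds the CCAAT part of the ERSE, were 1.78-fold and 1.58-fold higher. The other entering probe sets had 0.79, 0.93 and 0.27 for NFYA and 0.40, -0.05 and 0.56 for NFYB. CREB3L2 had a ratio of 0.53.

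**Figure D5:**
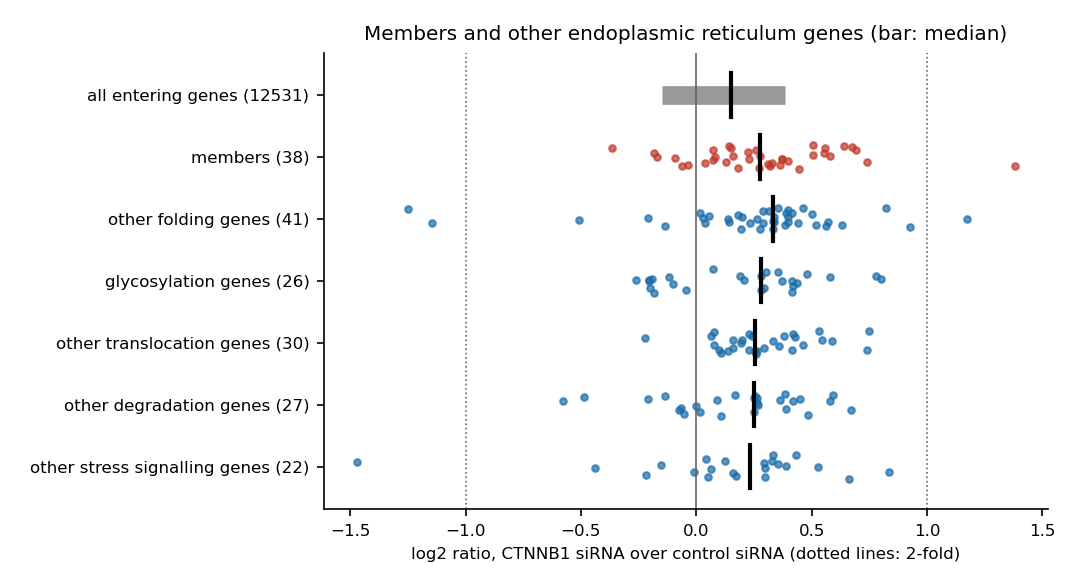
Log2 ratio of CTNNB1 siRNA over control siRNA (x axis) for the 38 members and 5 lists of other ER genes (y axis, number of genes in brackets), 1 point per gene with a black bar at the median and a little vertical scatter for legibility. The grey band is the interquartile range of all 12531 genes, from -0.15 to 0.38, and the members' median is 0.27 as deposited and 0.05 after loess.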

How the data were processed

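Gene expression was measured in 2 HCC15 samples, control siRNA and CTNNB1 siRNA, 1 array each. The authors deposited an intensity on a linear scale for 54675 probe sets on each array. MAS5 is named per the submitters' processing notes, with its version, target intensity and detection calls not given in the sources used here. Median signals were 51.3 and 46.7. Of the probe sets, 41097 had 1 symbol in GEO's platform annotation, 1801 had several and 11777 were unlisted. Symbols were updated through Entrez numbers (41043 matched).

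From the deposited intensity, log2 ratios were computed with values under the 25th percentile (13.8) raised to it. Probe sets entered at a mean signal of at least 49.1, the median, and the one with the highest mean stood for a gene. Genes were called past 2-fold or 1.5-fold, without a test. All members are named, with other probe sets where they differ, the knockdown check, and of each other list at most the 4 genes with the largest absolute ratio. Further probe sets are given beside a member, chosen after their values were seen. The members, lists and rules were chosen with earlier results of these data known. Alternatives were 4 scalings, another floor, 2 filters and 2 choices of probe set. Steps were tested on simulated data. The number of arrays limits the precision. Python 3.11.15, pandas 2.3.3 and statsmodels 0.14.6 (loess, span 0.3) were used.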

Additional observations from a re-analysis of the deposited data

How the results depend on the processing

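The count of members at least 2-fold higher was 1 (HSP90B1) and at least 2-fold lower 0 in all 9 alternatives, though HSP90B1 has only _x_at probe sets and so kept its value where those were dropped. The count at least 1.5-fold higher, 5 as deposited, was 1 after quantile normalization and 1 after loess. It was 10 with a common median, 2 with ratios centred on the median, and 4 or 5 in the others. The genes counted also changed with the choice of probe set. With the median over probe sets SEC62 (0.50) fell short and SEC61A1 (0.64) passed. Without _s_at and _x_at probe sets SEC62 (0.30) and SSR3 (0.58) fell short and HERPUD1 (0.74) passed, through its dim probe set. The count at least 1.5-fold lower, 0 as deposited, was 1 with the median over probe sets (DERL2). The members' median log2 ratio, 0.27, ran from 0.04 after quantile normalization to 0.41 with a common median. Of 339 member values in the alternatives, 8 moved by over 1 probe set SD, all through the choice of probe set: HSPA5 (-0.34), HERPUD1 (0.29), DERL2 (-0.78) and ERN1 (-0.56) with the median over probe sets, and CANX (-0.39), HERPUD1 (0.74), SEC63 (-0.25) and SSR1 (-0.39) without _s_at and _x_at probe sets. The scalings shifted every member by less than that SD, and the other floor and filters left member values unchanged, so these could not add to the 8. The sign differed from the deposited value in 12 members after quantile normalization, 10 after loess, 7 when centred and 3 with a common median. It differed in 5 with the median over probe sets and in 4 without _s_at and _x_at probe sets. The same alternatives were applied to the other genes named, a choice made after seeing the data. With the median over probe sets, CTNNB1 (-0.97) and TRIB3 (-0.83) fell short of 2-fold and UGGT2 (0.19), EMC1 (0.28), OS9 (0.52) and NFYB (0.48) of 1.5-fold. With a common median SELENOF passed 2-fold (1.06), and ALG1, DPM1, SGTA, NGLY1 and CREB3L2 passed 1.5-fold higher. When centred, TRAM2, OS9, AUP1 and NFYB fell short of 1.5-fold, and RNF5 passed 1.5-fold lower (-0.73). After quantile normalization the same genes fell short as after loess. Without _s_at and _x_at probe sets EMC1 (0.34) and NFYB (0.40) fell short, and CREB3L2 stood at 1.5-fold (0.585). The cause was not tested. No replicate could be left out. No paired analysis was possible because each group has 1 array. Dim probe sets limit DERL3, EDEM2 and WFS1, which did not enter with the filter at the 75th percentile.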
